A study of Mus musculus with 21 samples.

Results

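The plasminogen activator system was followed through mouse prostate tumours of the NP and NPK genotypes. Its members were listed by function: Plau, Plaur, Plat, Serpine2 and Serpinb5, with every probe that the array annotation assigned to them. Of these 5 genes, 4 had a named probe, 6 probes in all, against 19020 genes with a named probe in the whole table. Serpine2 was not named in the annotation and was not analysed here. A probe was kept for testing when its intensity exceeded the array's detection level, the level that background noise passes with a probability of 0.01, on at least 3 of the 21 arrays. The 4 kept member probes belonged to 3 genes, with 1 probe for Plau, 1 for Plaur and 2 for Plat. The third Plat probe and the only Serpinb5 probe were detected on 0 arrays.

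RNA was taken from tumours of the anterior prostate and hybridised to Illumina bead arrays in a study of ETV4 in tumours with active PI3-kinase and RAS signalling. There were 8 arrays of NP tumours and 8 of NPK tumours, neither given a stage, with 3 arrays of NPK tumours at 1 month, called early, and 2 of NPK tumours at 3 months, called late. The labels give the genotypes only as NP and NPK. The labels do not say from which event the months were counted. Each sample has its own identifier, but the labels do not state that each was a separate animal, and the p-values reflect only the spread among these arrays. NP replicates 4 and 5 were closer to each other than any other replicates of a group and entered as 1 averaged sample, which left 20 samples, with n = 7 for NP.

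Plasminogen is a circulating zymogen that is cut to plasmin, a broad serine protease that dissolves fibrin and degrades extracellular matrix. Plau encodes the urokinase-type activator, which acts mainly at cell surfaces during migration and tissue remodelling, and Plat encodes the tissue-type activator, best known for fibrinolysis. Plaur encodes the GPI-anchored urokinase receptor, which holds the activator at the cell surface and signals with integrins. Serpine2, or protease nexin-1, inhibits urokinase, plasmin and thrombin, and Serpinb5, or maspin, is a serpin of basal and myoepithelial cells without a classical inhibitory reactive loop. AP-1 factors and ETS factors of the PEA3 subfamily, to which Etv4 belongs, are textbook regulators of the urokinase gene in cultured cells.

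The sequences before the gene starts of Plaur and Serpinb5 are shown because Plaur was the member whose level differed most between the genotypes and Serpinb5 the one with no detected probe. Each run holds the 250 bases before the annotated start, from RefSeq on GRCm38.p6, at chr7:24462233-24462482 on the plus strand for Plaur and chr1:106860925-106861174 on the plus strand for Serpinb5. Capitals mark matches to the AP-1 motif TGANTCA, which is its own reverse complement, and to the PEA3 core AGGAAG on either strand.
Plaur: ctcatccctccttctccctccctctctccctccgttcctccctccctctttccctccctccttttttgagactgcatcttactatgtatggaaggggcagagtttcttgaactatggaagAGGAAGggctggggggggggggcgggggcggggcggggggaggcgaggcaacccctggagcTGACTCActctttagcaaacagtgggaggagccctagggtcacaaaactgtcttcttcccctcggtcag
Serpinb5: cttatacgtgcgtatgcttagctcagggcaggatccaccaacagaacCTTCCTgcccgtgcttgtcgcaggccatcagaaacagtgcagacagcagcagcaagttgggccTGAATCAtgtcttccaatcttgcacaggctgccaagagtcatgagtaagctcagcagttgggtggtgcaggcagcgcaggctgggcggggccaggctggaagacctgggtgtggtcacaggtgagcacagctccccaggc
The Plaur window held 1 AP-1 match, beginning 69 bases before the start, and 1 PEA3 match, beginning 130 bases before it. The Serpinb5 window held 1 AP-1 match, beginning 140 bases before the start, and 1 PEA3 match on the minus strand, beginning 203 bases before it. No match overlapped another. Among 32817 windows of the same length before mouse gene starts, 6.75% held the AP-1 motif and 29.5% the PEA3 core. These matches describe letters in the window and were not tested for binding.

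Between 19063 and 20405 probes were detected per NP array, 15855 to 18226 per NPK array, 19458 to 20138 at 1 month and 19489 to 19600 at 3 months. No chip held both NP and NPK arrays, while all 5 month-labelled arrays shared 1 chip. Within-chip values of the genotype difference could therefore not be had. The main fit had no term for chip, and chip entered as a random block only in an alternative setting. The labelled tissue was checked against marker genes, and the luminal keratins Krt8 and Krt18 averaged log2 levels of 14.72 and 13.36 in NP and 14.52 and 12.76 in NPK.

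Plaur was the member with a clear difference between the genotypes. It rose 3.16-fold in NPK over NP, 4.12-fold in NPK at 1 month over NP and 8.42-fold in NPK at 3 months over NP. The bright Plat probe rose 2.01-fold at 3 months over NP, and Plau passed the test in 0 of 6 comparisons. Levels are log2 of normalized intensity plus 16, changes are differences of group means with moderated standard errors, and a change was called at an adjusted p under 0.05 by limma, with Benjamini-Hochberg adjustment over all 24217 kept probes. In NPK against NP, 1 of the 4 kept member probes was called higher and 1, a dim Plat probe at background in NPK, lower, where 32.4% of all kept probes were called, 13.4% higher and 19.0% lower. Of all those calls 41.4% were higher, and 62.2% with the arrays scaled by their medians, which moved the median difference of all probes from -0.03 to 0.10. The Plaur difference was 1.56 above that median. At 1 month against NP, 1 member probe was called higher, with 37.7% of all kept probes called, 18.4% higher and 19.3% lower, and the share of calls that were higher was 48.9%, or 61.3% with median scaling. At 3 months against NP, 2 were called higher, with 45.4% of all called, 23.9% higher and 21.5% lower. These 3 comparisons share the NP samples, and with shares of this size in the whole table the member counts alone set nothing apart.

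**Figure D1:**
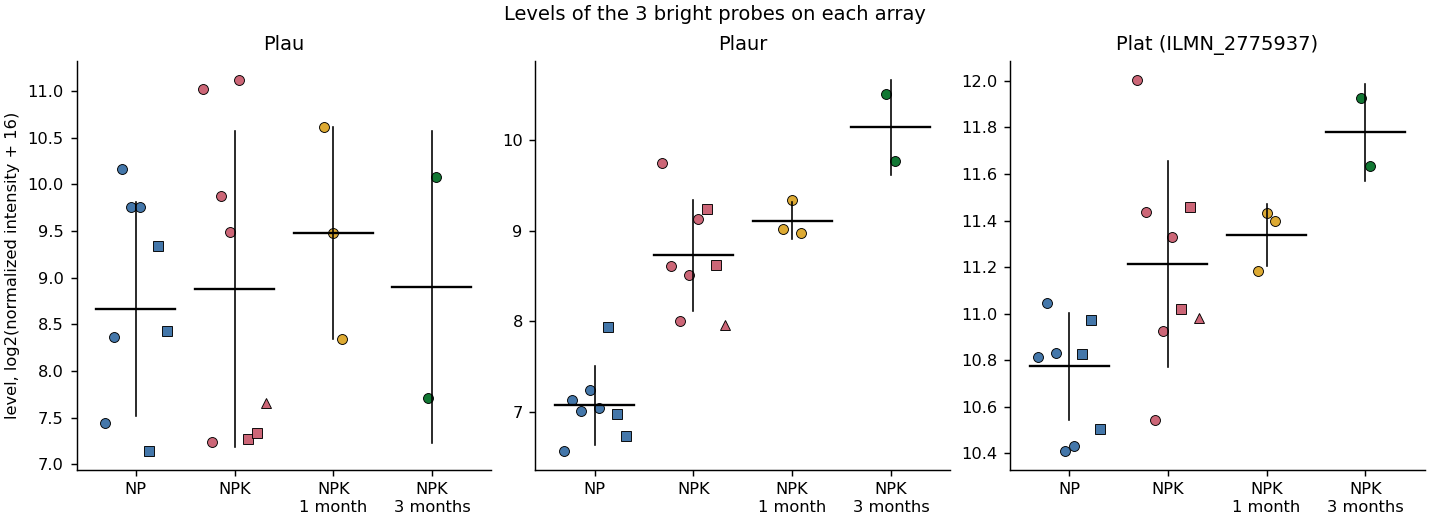
Log2 levels of Plau, Plaur and the bright Plat probe on each array, by group. Each point is 1 array, its shape marks the chip within a group, the horizontal line is the group mean and the vertical line 1 SD (n = 7, 8, 3 and 2, with NP replicates 4 and 5 averaged). Plaur is at 7.94 or less in each NP array and at 7.96 or more in each NPK array, while the ranges of Plau in NP and NPK overlap and its 2 highest arrays are NPK replicates 1 and 5.

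Plau, the urokinase-type activator, was detected on all 21 arrays but varied widely within every group. In NP its log2 levels were 7.44, 8.36, 10.16, 9.75, 9.76, 7.14, 9.34 and 8.43 in replicates 1 to 8. In NPK they were 11.02, 7.24, 9.87, 9.49, 11.12, 7.27, 7.34 and 7.66. NPK replicates 1, 3, 4 and 5 lay at 9.49 or above and replicates 2, 6, 7 and 8 at 7.66 or below, with no array between. At 1 month the levels were 10.61, 9.48 and 8.34, and at 3 months 7.71 and 10.08, so all 4 groups overlapped.

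The group means of Plau were 8.66 ± 1.14 (SD, n = 7) in NP, 8.88 ± 1.69 (n = 8) in NPK, 9.48 ± 1.14 (n = 3) at 1 month and 8.89 ± 1.67 (n = 2) at 3 months. The NPK minus NP difference was 0.22 ± 0.69 (SE), with a 95% interval from -1.22 to 1.65 (limma, adjusted p = 0.833), so a rise or a fall of over 2-fold both lay within the interval. No neighbours in the order of the 4 means differed beyond their spread, and the adjusted p of the other 5 comparisons ran from 0.505 to 0.990. Between 3 months and 1 month the difference was -0.58 ± 1.21 (limma, adjusted p = 0.841).

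The spread of Plau ranked high. Its SD within groups was 1.44 log2 units, larger than that of 99.3% of kept probes, for which the median was 0.384. This held in NP, where its SD exceeded 97.8% of probes, and in NPK, where it exceeded 99.3%. Between its lowest array, NP replicate 6, and its highest, NPK replicate 5, the normalized level differed 15.8-fold. The SD of Plaur exceeded that of 74.0% of probes and that of the bright Plat probe 37.9%, as a description with no test.

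**Figure D2:**
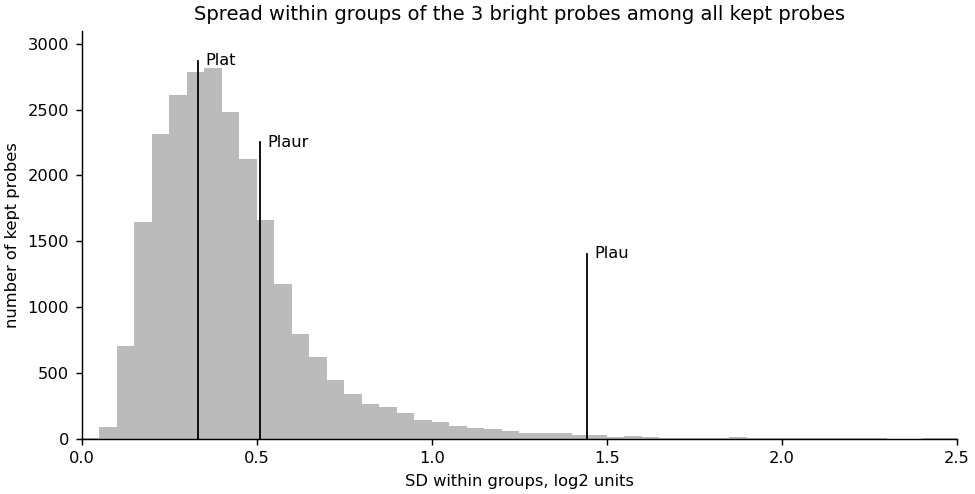
Distribution of the SD within groups (horizontal axis, log2 units) over all kept probes, with counts of probes on the vertical axis and lines at the values of Plat, Plaur and Plau. Plau lies at 1.44, beyond 99.3% of probes, and Plaur and Plat lie within the bulk.

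The high and low Plau arrays moved in part with the chip. Mean levels in NPK were 9.75 on the chip of replicates 1 to 5, 7.30 on that of replicates 6 and 7 and 7.66 on that of replicate 8. Replicate 2, at 7.24, shared the chip of the high arrays. In NP the chip of replicates 1 to 5 averaged 9.09 and that of replicates 6 to 8 averaged 8.30. The NPK minus NP difference was -1.51 when only the chips of NP 1 to 5 and NPK 6 to 8, which share a barcode series, were used (adjusted p = 0.142), and -0.04 with chip as a random block (adjusted p = 0.983). Muscle genes split NPK as Plau did. Means of 5 skeletal muscle genes were 5.94 to 8.44 in replicates 1, 3, 4 and 5 and at most 5.397 in the rest. Those of 5 smooth muscle genes were 10.25 to 12.3 and at most 10.16. In NP replicate 3, highest in Plau, was lowest for skeletal muscle, at 5.004, and replicate 2 highest for smooth muscle, at 9.43. At 3 months replicate 2, higher in Plau, was higher for smooth and lower for skeletal muscle. The parts of chip and muscle in the spread of Plau were not tested.

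Plat, the tissue-type activator, was measured by 3 probes of very different brightness. The bright probe, ILMN_2775937, was detected on all 21 arrays. Its log2 levels ran from 10.41 to 11.04 in NP with a median of 10.82, and from 10.54 to 12.01 in NPK with a median of 11.17, so these groups overlapped. At 1 month they were 11.18, 11.43 and 11.40, and at 3 months 11.93 and 11.63. All 5 month-labelled arrays lay above every NP array, and both 3-month arrays lay above the 3 at 1 month. In the deposited intensities, before normalization, the 1-month arrays were at 1688, 1925 and 2592. The NP arrays ran from 1450 to 2482 there, so these groups overlapped.

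The means of the bright Plat probe were ordered NP, NPK, 1 month and 3 months, at 10.77 ± 0.23 (SD, n = 7), 11.21 ± 0.44 (n = 8), 11.34 ± 0.13 (n = 3) and 11.78 ± 0.21 (n = 2). Only the ends of this order passed the test, with a difference of 1.01 ± 0.27 (SE) between 3 months and NP (limma, adjusted p = 0.00480). In a comparison where 45.4% of all kept probes were called, this difference was larger in size than that of 68.5% of kept probes. Without replicate 1 of the 3-month group it was 0.86 (adjusted p = 0.0820). NPK minus NP was 0.44 ± 0.17 and missed the threshold (limma, adjusted p = 0.0571), with adjusted p from 0.0160 to 0.250 over its 35 alternative settings. At 1 month minus NP it was 0.57 ± 0.23 (adjusted p = 0.0585), and 3 months minus 1 month was 0.44 ± 0.30, with an interval from -0.19 to 1.08 (adjusted p = 0.393).

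A second Plat probe, ILMN_3003008, assigned to the same transcript, sat near the noise. It was detected on 2 of 8 NP, 0 of 8 NPK, 0 of 3 1-month and 1 of 2 3-month arrays. Deposited intensities ran from 3.75 to 53.1 in NP and from -22.4 to 3.29 in NPK, where 7 of 8 values were below 0. The limma fit called it lower in NPK than in NP (adjusted p = 0.0110). It was kept through 2 NP arrays and 1 3-month array, and with NPK not above background no size is given and no direction is read from it. The call was lost with median scaling (adjusted p = 0.667) and with values floored at the detection level (adjusted p = 0.424). The third probe, ILMN_1232110, assigned to a cDNA sequence, was detected on 0 of 21 arrays, with intensities from -21.9 to 26.7.

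**Figure D3:**
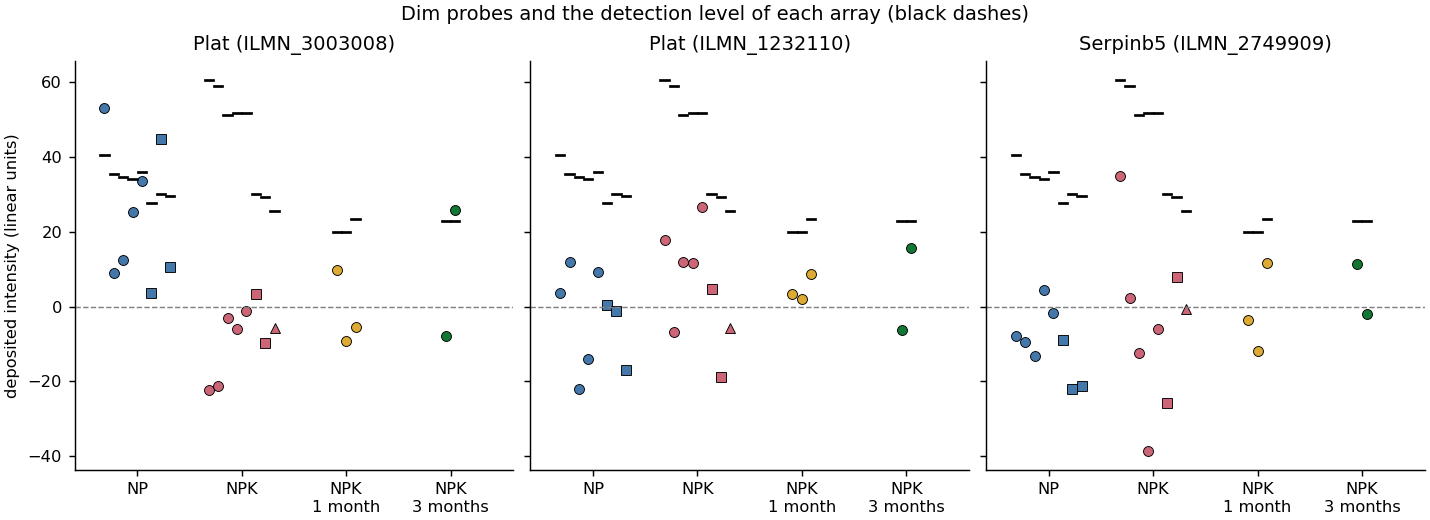
Deposited linear intensities of the 2 dim Plat probes and the Serpinb5 probe on each array, by group, with a black dash at each array's detection level. Point shapes mark the chip within a group. Only 3 points of ILMN_3003008, 2 in NP and 1 at 3 months, and none of the other 2 probes lie above their dashes.

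Plaur, the urokinase receptor, was detected on all 21 arrays. In NP its log2 levels were 6.56, 7.13, 7.01, 7.23, 7.04, 7.94, 6.97 and 6.73 in replicates 1 to 8. In NPK they were 9.75, 8.62, 8.01, 8.51, 9.13, 9.24, 8.63 and 7.96. At 1 month they were 9.02, 9.34 and 8.97, and at 3 months 10.52 and 9.77. Every NPK array of any stage lay above every NP array, although the lowest NPK array, replicate 8, and the highest NP array, replicate 6, differed by little. In the deposited intensities, before normalization, those same arrays were at 151 and 228, so the groups overlapped there.

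The mean level of Plaur was 7.07 ± 0.44 (SD, n = 7) in NP and 8.73 ± 0.61 (n = 8) in NPK, a difference of 1.66 ± 0.25 (SE) with an interval from 1.14 to 2.18 (limma, adjusted p = 9.38e-05). Its size was larger than that of 97.8% of kept probes. The call was kept under all 35 alternative settings, in which the difference ran from 0.89, by the authors' processed values, to 1.81. With chip as a random block it was 1.60 (adjusted p = 0.00386). By chip, NP means were 7.00 and 7.22 and NPK means 8.80, 8.93 and 7.96.

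At 1 month Plaur averaged 9.11 ± 0.20 (SD, n = 3), which was 2.04 ± 0.33 (SE) above NP (limma, adjusted p = 0.000157). At 3 months it averaged 10.14 ± 0.53 (n = 2), which was 3.07 ± 0.39 above NP (adjusted p = 5.18e-06). The difference from 1 to 3 months, within 1 chip, was 1.03 ± 0.44 with an interval from 0.11 to 1.957. It did not pass the adjusted threshold (limma, adjusted p = 0.131). The arrays did not overlap, but groups of 2 and 3 arrays often separate without a difference, so nothing is read from this. In that comparison 0 of 4 member probes were called in the limma fit, 1 had an unadjusted p under 0.05, namely Plaur at 0.0305, and 15.4% of all kept probes were called, 8.25% higher and 7.19% lower.

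Against the 1-month group, the mean of Plaur in unstaged NPK differed by -0.38 ± 0.33 (SE), with an interval from -1.07 to 0.30 (limma, adjusted p = 0.442), and 0 of 4 member probes were called, all at an unadjusted p above 0.05, with 19.8% of all kept probes called, 8.88% higher and 10.9% lower. Against 3 months, NPK was lower by -1.41 ± 0.38 (adjusted p = 0.00708), the only called member of 4, with 35.6% of all kept probes called, 14.5% higher and 21.1% lower. Without replicate 1 of the 3-month group that difference was -1.04 (adjusted p = 0.173).

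**Figure D4:**
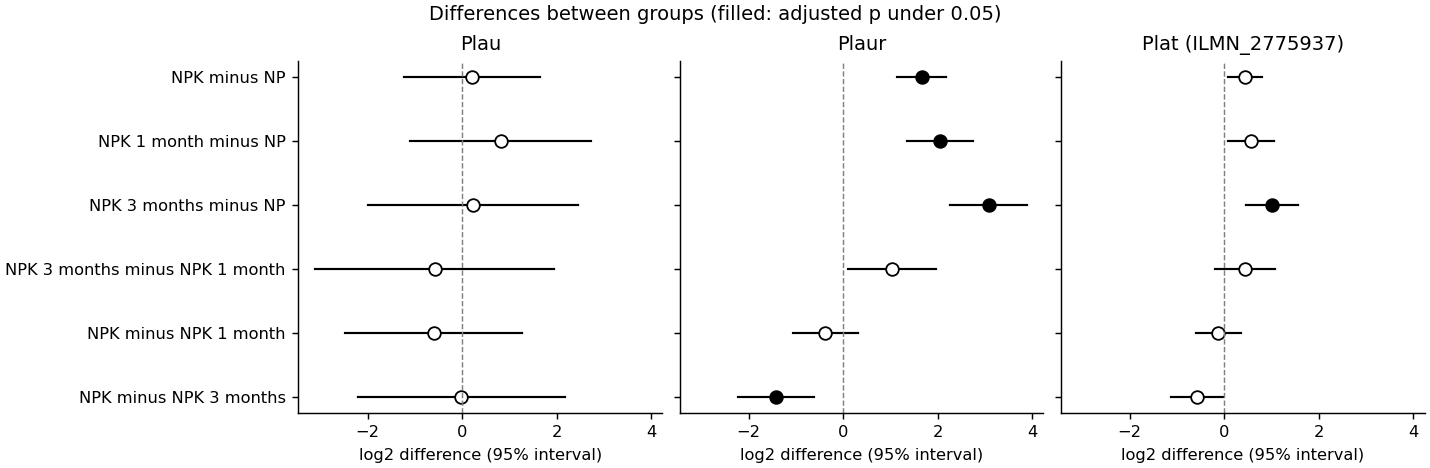
Differences in mean log2 level between groups for Plau, Plaur and the bright Plat probe (horizontal axis), with 95% moderated intervals, for the 6 comparisons on the vertical axis. Filled points passed the adjusted threshold: 4 for Plaur, 1 for Plat and 0 for Plau.

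Urokinase receptor is known from myeloid cells, endothelium and migrating epithelium, so marker lists of these and other cell types were set beside it. In bulk tissue, fewer cells of a type and less RNA per cell cannot be told apart. All 7 of 7 endothelial markers were called higher in NPK over NP, where 13.4% of all kept probes were called higher and 19.0% lower. Kdr was detected on 0 arrays of either group, so no rise is read from it. Mean levels of the list ran from 7.22 to 7.79 in NP and from 7.95 to 8.89 in NPK. Of 6 macrophage markers 1 rose and 2 fell, with overlapping ranges of 10.3 to 11.2 and 9.85 to 11.2, and of 4 neutrophil markers 0 rose and 1 fell, at 9.68 to 10.9 and 7.14 to 11.4. Fibroblast markers rose in 3 of 8, at 7.48 to 9.19 and 8.76 to 10.97, smooth muscle in 4 of 5, at 7.36 to 9.43 and 8.42 to 12.3, and seminal vesicle genes in 5 of 6, at 4.94 to 7.67 and 6.52 to 14.7. Seminal vesicle and skeletal muscle lists were highest at 1 month, at 11.2 to 14.1 and 8.62 to 9.37, and lower at 3 months, at 5.79 to 7.498 and 5.94 to 6.35. Of the seminal vesicle genes 2 of 6 were detected on no NP array and 3 of 6 on no 3-month array. For skeletal muscle, 3 of 5 genes were detected on no 3-month array. Luminal markers fell in 2 of 4 and rose in 0 in NPK against NP, at 11.1 to 11.9 and 10.8 to 11.4, and basal markers rose in 1 of 5 and fell in 0. At 3 months against NP, where Plaur and Plat were highest, 3 of 4 luminal and 5 of 5 basal markers fell. In that comparison 21.5% of all kept probes were called lower. The part of these cell types in the Plaur and Plat differences was not tested.

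By the smallest root mean square difference of mean-centred levels over the 20 samples, the genes most like Plaur were Kdelr3, an endoplasmic reticulum retention receptor, at 0.419, Tnfrsf22, a TNF receptor family decoy, at 0.421, and Hbegf, a membrane-anchored ligand of the EGF receptor, at 0.430. A flat profile lay 1.12 from Plaur. The genes closest to the bright Plat probe were Wdr77 at 0.230, Myl12a at 0.241 and Map2k4 at 0.248, against 0.430 for a flat profile. For Plau the nearest were Plac9a at 0.954, Cdk12 at 0.968 and Mgll at 0.977, against 1.32 for a flat profile. Likeness over shared samples carries the group differences with it and is given as a description.

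Among the serpins, Serpinb5 was detected on 0 of 21 arrays. Its intensity ran from -22.1 to 4.53 in NP, from -38.6 to 34.8 in NPK, from -11.8 to 11.5 at 1 month and from -2.06 to 11.4 at 3 months. It was below 0 on 7 of 8 NP and 5 of 8 NPK arrays. Basal epithelial keratins were present on the same arrays, with all 5 basal markers detected on every array and mean list levels of 11.4 to 12.7 in NP, 10.6 to 12.7 in NPK and 8.71 to 10.4 at 3 months. With 1 named probe, the measurement speaks for that probe, and Serpinb5 was not tested.

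The remaining genes of the system were read from 4 lists by role, 43 genes, of which 33 were tested, 6 had named probes that were not kept and 4 were not named here. Plg, the plasminogen zymogen itself, had 4 named probes, none detected on more than 1 of 21 arrays. Serpinf2, the plasmin inhibitor, had 3 probes detected on 0 arrays, and Serpinb2, an inhibitor of urokinase, had 1 probe detected on 2 arrays. Each tested gene was represented by its brightest kept probe.

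Among other proteases of the pericellular system, 1 of 5 passed in NPK against NP, where 32.4% of all kept probes were called. From 1 to 3 months all 5 fell, where 15.4% of all were called, but 2 of 5 passed by the authors' processed values or with only the compared groups fitted. With genotype the one that passed was St14, the membrane protease matriptase, higher by 0.80 ± 0.27 (SE, limma, adjusted p = 0.0289), and its 2 other probes stood at 0.12 (adjusted p = 0.644) and 0.97 (adjusted p = 0.00126). The St14 call was lost without NP replicate 7, NP replicate 8 or NPK replicate 1 (adjusted p from 0.0507 to 0.0673) and with chip as a random block (adjusted p = 0.119). Without NP replicate 3 or NPK replicate 7, 2 of 5 passed. The list's median difference was 0.49, with -0.03 over all kept probes. From 1 to 3 months the median of the list was -3.05, with 0.04 over all probes. St14 fell by 3.72 ± 0.47 (adjusted p = 4.82e-05), and Tmprss4, another transmembrane serine protease, fell by 3.82 ± 0.56 (adjusted p = 0.000152). Prss8, the GPI-anchored prostasin, fell by 2.92 ± 0.54 (adjusted p = 0.000984), and Hpn, or hepsin, was at least 3.42-fold lower, being detected on 0 of 2 arrays at 3 months (adjusted p = 0.00754). Hgfac, an activator of hepatocyte growth factor, fell by 3.05 ± 0.83 (adjusted p = 0.0162). Dimmer probes of Tmprss4, at -0.39 (adjusted p = 0.447), and of Hpn, at -0.65 (adjusted p = 0.437), did not pass. The lower bound for Hpn sets the 1-month mean against the lowest detected level of the 3-month arrays. Over the same step 1 of 4 luminal markers fell and 0 rose, namely Cdh1 by 2.37 (adjusted p = 3.95e-05), and 2 of 5 basal markers fell, Krt14 and Krt17. Seminal vesicle genes fell in 4 of 6, with a median of -6.10, and skeletal muscle genes in 4 of 5, with a median of -3.39. No size is read from these medians, because 3 of 6 seminal vesicle and 3 of 5 skeletal muscle genes were detected on no 3-month array. Their part in the protease and inhibitor values was not tested.

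Of the inhibitors, 2 of 8 rose in NPK over NP and 3 were called lower, with a median of -0.25, where 32.4% of all kept probes were called. The 5 calls became 2 with chip as a random block, with only chips of 1 barcode series, without the chip of NPK 1 to 5 or with values floored at the detection level, and 3 with median scaling. Serpinb1a, an inhibitor of neutrophil proteases, rose by 1.71 ± 0.32 (SE, limma, adjusted p = 0.000547), and Serpinb6a rose by 0.48 ± 0.12 (adjusted p = 0.00569), while its other probe stood at -0.45 (adjusted p = 0.340). The 3 called lower were dim in NPK, passed the filter through other groups, and no size is read from them. Serpinb8 was above the detection level in 0 of 8 NPK and 3 of 8 NP arrays, Serpini1, or neuroserpin, in 0 of 8 and 4 of 8, and Serpina5, the protein C inhibitor, in 1 of 8 and 7 of 8. From 1 to 3 months 3 of 8 fell and 1 rose, with a median of -0.94, where 15.4% of all kept probes were called, 8.25% higher and 7.19% lower. Spint1 and Spint2, Kunitz inhibitors of hepsin and matriptase, fell by 2.70 ± 0.34 (adjusted p = 4.38e-05) and 2.22 ± 0.39 (adjusted p = 0.000722). Serpinb1a fell by 2.24 ± 0.56 (adjusted p = 0.00991), while Serpinb6a rose by 0.69 ± 0.22 (adjusted p = 0.0359). The second Spint2 probe differed by -0.36 over this step (adjusted p = 0.614), so the probes of this gene disagreed.

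Among cell-surface partners of the receptor and of plasmin, 3 of 11 rose in NPK over NP and 1 was called lower, with a median of 0.40, where 32.4% of all kept probes were called. The 4 calls became 1 with chip as a random block and 2 with only chips of 1 barcode series or without the chip of NP 6 to 8. Itga5, the fibronectin receptor subunit, rose by 1.90 ± 0.27 (SE, limma, adjusted p = 5.38e-05), and its other probe by 1.29 (adjusted p = 0.00399). Anxa2, a plasminogen-binding surface annexin, rose by 0.40 ± 0.11 (adjusted p = 0.00703) and Egfr by 0.41 ± 0.12 (adjusted p = 0.0151). Itgb3 was the gene called lower, with a signal above the detection level in 1 of 8 NPK and 4 of 8 NP arrays, and that call was lost in 21 of 34 settings and reversed in 1. From 1 to 3 months 2 of 11 rose and 0 fell, each gene read by its brightest kept probe. In that comparison 15.4% of all kept probes were called, 8.25% higher and 7.19% lower. Itga5 rose by 1.89 ± 0.47 (adjusted p = 0.0103) and S100a10, the annexin partner that binds plasminogen, by 1.51 ± 0.44 (adjusted p = 0.0244). The brightest Cd44 probe did not pass. Dimmer Cd44 probes stood at -3.21 (adjusted p = 0.00130), -3.15 (adjusted p = 0.000252), -2.84 (adjusted p = 0.00103) and -2.27 (adjusted p = 0.00633). The rest, at -0.60 (adjusted p = 0.388) and 0.04 (adjusted p = 0.986), did not pass, so the probes of this gene disagreed. The median of the list over that step was -0.08.

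Of the substrates and effectors of plasmin, 4 of 9 rose in NPK over NP, 1 fell and 4 did not pass, with a median of 1.06, where 32.4% of all kept probes were called. The 5 calls became 3 with only chips of 1 barcode series. Fn1, fibronectin, rose by 4.09 ± 0.43 (SE, limma, adjusted p = 4.78e-06), with its 3 other probes at 0.08, 1.62 and 1.92. Tgfb1, a growth factor released from its latent form by plasmin, rose by 1.28 ± 0.20 (adjusted p = 0.000135), and Mmp2, a gelatinase, rose by 2.04 ± 0.34 (adjusted p = 0.000235). Mmp3, a stromelysin, rose by 1.06 ± 0.34 (adjusted p = 0.0225). Hgf, a growth factor activated by proteases of this family, fell by 0.90 ± 0.22 (adjusted p = 0.00414), with its other probe at -0.36 (adjusted p = 0.270). In the fibroblast list 3 of 8 rose, 0 fell and 5 did not pass, led by Col1a1 at 3.87 ± 0.39 (adjusted p = 3.79e-06). Dimmer probes of Dcn stood at -0.83 (adjusted p = 0.173), -0.72 (adjusted p = 0.0724) and -1.39 (adjusted p = 0.0165). Those of Lum and Pdgfra stood at -0.25 (adjusted p = 0.718) and -0.09 (adjusted p = 0.657), and that of Col3a1 at 1.17 (adjusted p = 0.00188). The part of this list was not tested. From 1 to 3 months 0 of 9 passed in the limma fit, with a median of 0.60, where 15.4% of all kept probes were called. Of the 9, 2 had an unadjusted p under 0.05.

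Calls of the 1 to 3 month step changed with several settings. Without 1-month replicate 1 or replicate 2, 1 of 11 surface partners passed, and without 1-month replicate 2, 1 of 9 substrates and effectors. By the authors' processed values 2 of 5 proteases, 1 of 8 inhibitors and 1 of 11 surface partners passed. Without the first 3-month array 3 of 5 proteases, 2 of 8 inhibitors and 0 of 11 surface partners passed, and the single remaining 3-month sample was then assumed to vary like the other groups.

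**Figure D5:**
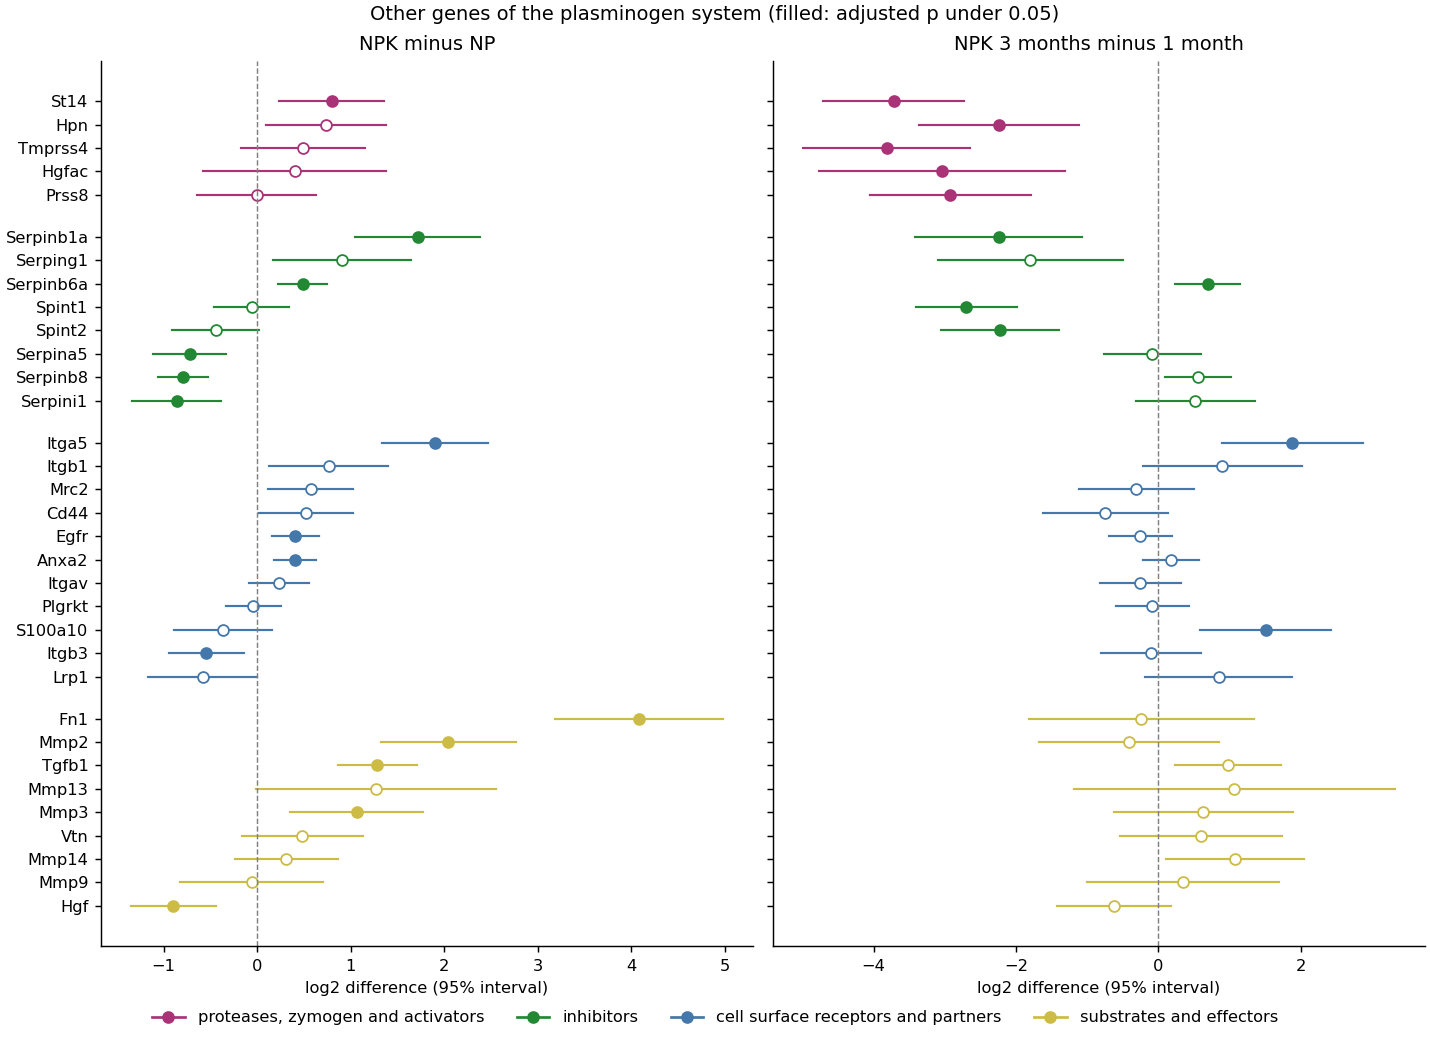
Differences in log2 level (horizontal axes, with 95% moderated intervals) of the 33 tested genes of the 4 lists, for NPK minus NP on the left and NPK at 3 months minus 1 month on the right. Filled points passed the adjusted threshold. All 5 proteases lie to the left of 0 in the right panel, and Fn1 lies farthest to the right in the left panel.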

How the data were processed

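Total RNA came from a magnetic bead extraction and an Illumina amplification kit, per the labels' protocols, and BeadStudio and lumi are named, with no version or role, in the submitters' processing notes. Linear intensities of 45126 probes were deposited; values below 0 show that the authors had subtracted a background, and array totals that no scaling between arrays had been done. The authors' processed values, also deposited, are on a log2 scale. Their transform and centring are unknown. Upper quartiles lay at 8.60 to 8.64 for NP and NPK and 8.34 to 8.35 for the month-labelled arrays, so tests on them stayed within each set and served as an alternative.

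The noise SD of an array was estimated from its values below 0. Intensities were corrected by a normal-exponential model with background mean 0, given an offset of 16, quantile normalized and taken to log2. The filter of 3 detected arrays left 24217 probes. The platform annotation gave 34767 probes 1 symbol, 18 several, and 10341 were not named here. NP replicates 4 and 5 differed with an SD of 0.116 over 2342 bright probes, the next closest pair with 0.229. All groups entered 1 limma fit (limma 3.58.1, R 4.3.3, 16 residual degrees of freedom, two-sided tests), and intervals are 95% and unadjusted. The number of arrays limits the precision.

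The members, lists, markers and tests were chosen with earlier results of these data known. Named were all member probes, Plg, Serpinb2 and Serpinf2, up to 4 called genes of smallest adjusted p per list and comparison, and the 3 closest profiles per member. Hgfac, Serpini1, Mmp3, Cd44 and the markers Krt8, Krt18, Krt14, Krt17, Kdr, Cdh1, Col1a1, Dcn, Lum, Pdgfra and Col3a1 were named after their values were seen. Alternatives covered scaling, offset, filters, chips, the replicate block, the authors' values and each array left out. Some genes are not reported here. The steps were tested on simulated data.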

Additional observations from a re-analysis of the deposited data

Results flagged for a closer look

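In NP, replicate 6 had a Plaur log2 level of 7.94, and the nearest of the other 6 NP samples stood at 7.14. The gap took 58.2% of the group's whole range, above the limit for 7 samples. This array set the narrow distance between NP and NPK for this gene: without it, the highest NP level would be 7.14, counting replicates 4 and 5 as 1 sample, and the lowest NPK level 7.96. It was 1 of 8 groups of member values examined in this way, and chance flags about 1 in 20 groups.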

How the results depend on the processing

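The Plaur difference between NPK and NP kept its direction and passed under all 35 settings, and Plaur against NP passed in 25 of 25 settings at 1 month and 24 of 24 at 3 months. Member probes called in NPK against NP numbered 2, and 1 with 1 probe a gene, with chip as a random block, with 8 detected arrays required, with the floor at the detection level, with only chips of 1 barcode series, and without the chip of NP 1 to 5 or of NPK 1 to 5; leaving out single arrays gave 2 to 3. At 1 month against NP the count of 1 became 2 with array weights, median scaling, NP 4 and 5 as 2 samples, or only the compared groups. At 3 months against NP the count of 2 became 1 with the replicate block, and single arrays left out gave 1 to 2. For NPK against 3 months the count of 1 became 0 with the replicate block and 2 without the chip of NPK 1 to 5, with 1 to 2 over single arrays. It was 0 throughout for 3 months against 1 month (17 of 17 settings) and for NPK against 1 month (25 of 25).

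Plau turned direction without passing. NPK minus NP was -0.039 with chip as a random block, -1.51 with 1 barcode series, -0.052 without the chip of NP 6 to 8, -1.24 without that of NPK 1 to 5, and -0.10 to 0.47 over single arrays left out. The 3-month minus NP difference was -0.033 without the chip of NP 6 to 8 and -0.95 to 1.42 over single arrays; 3 months minus 1 month ran from -1.76 to 0.60. NPK minus 3 months was 0.0060 with an offset of 50, 0.24 with the replicate block, 0.51 without the chip of NPK 6 to 7, 0.16 without that of NPK 8, and -1.20 to 1.16 over single arrays. The dim Plat probe ILMN_3003008 ran over single arrays from -0.18 to 0.83 for 3 months minus 1 month, -0.65 to 0.36 for 3 months minus NP, -0.24 to 0.063 for NPK minus 1 month (0.016 with median scaling) and -0.95 to 0.061 for NPK minus 3 months. Itgb3 in NPK minus NP was 0.012 with the floor. The causes were not tested, and a lone 3-month array was assumed to vary like the other groups.

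Same-numbered NP and NPK arrays did not deviate together (8 pairs, correlations from -0.12 to 0.067), so the numbers were not taken as pairs. With the replicate block the Plaur difference was 1.65 (adjusted p = 0.00103), and 3 member probes were called. From 1 to 3 months the block left 0 of 5 proteases, 0 of 8 inhibitors and 0 of 11 surface partners called.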

Other observations

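In the authors' processed values, a separate scale, the order of the Plaur arrays was the same at the boundary between genotypes: NP replicate 6 was highest in NP at 8.80 and NPK replicate 8 lowest in NPK at 8.81. In the same values the lowest Plau array was NP replicate 6, at 8.39, and the highest NPK replicate 5, at 11.2.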
